A study of Mus musculus with 8 samples.

Results

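The regions described here are the Pax6-bound sites whose nearest gene carried a Rik symbol in the authors' deposited table. A Rik symbol is a provisional name that ends in "Rik", given to a mouse gene first seen as a full-length cDNA clone. The rule took every row whose gene symbol ended in those 3 letters, without regard to its signal. It found 1808 of the 26244 sites of the table, assigned to 690 genes.

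Chromatin immunoprecipitation with sequencing (ChIP-seq) of Pax6 was performed in alphaTC1, a mouse line derived from a glucagonoma, a tumour of glucagon-producing pancreatic alpha cells. The control knockdown (control KD) group had received antisense oligonucleotides with a scrambled sequence. The Paupar knockdown (Paupar KD) group had received antisense oligonucleotides against Paupar, a long non-coding RNA made next to the Pax6 gene. Each group had 2 Pax6 ChIP libraries, described by the submitters as biological duplicates, so every p-value rests on 4 libraries of 1 cell line. The 4 input libraries were not analysed here, and neither the level of Paupar nor that of any Rik transcript was measured by these files. Among alpha-cell genes, Pax6 sites were assigned to Gcg (5 sites), Irx1 (26), Irx2 (3) and Ttr (3). Of 5 beta-cell genes, Ins1 and Ins2 had 0 sites, Pdx1 and Mafa had 1 each, and Nkx6-1 had 11. Such sites show binding near a gene and not its expression.

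Pax6 is a transcription factor with a paired domain and a homeodomain, and it is needed for islet endocrine cells to form and to make their hormones. Long non-coding RNAs (lncRNAs) are transcripts without a clear protein product, and many start beside, within or opposite to protein-coding genes. A Rik symbol does not say whether a gene is coding. A site given to a lncRNA by distance can lie closer to, or inside, a coding gene.

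The promoter sequences below show what 6 sites near annotated starts look like in the genome. They are the sites, called changed or among the 10 strongest promoter sites, whose 100 bp lay wholly inside a RefSeq promoter window (250 bases before to 50 after a start). All are from RefSeq, assembly GRCm38.p6 (the same build as mm10), and are written 5′ to 3′ on the strand of the promoter's gene. The site in the promoter of 4632428C04Rik, a lncRNA gene, covers chr16:30008489-30008588 on the plus strand and was lower after Paupar KD. The site of D130017N08Rik, a lncRNA gene, covers chr5:143758258-143758357 on the plus strand and reaches the start. The site given to 3110009E18Rik covers chr1:120121161-120121260 on the minus strand, in the promoter of Dbi, which encodes an acyl-CoA-binding protein. The sites of the lncRNA genes B230216N24Rik (chr1:98047790-98047889, minus strand) and 5330439B14Rik (chr6:142614369-142614468, plus strand) were higher after Paupar KD. So was the site given to A830010M20Rik, which lies across the start of the coding gene Btbd8 and of which the 88 bases before that start are shown (chr5:107497686-107497773, plus strand). Capitals mark a CCAAT or GGGCGG match on either strand.
4632428C04Rik: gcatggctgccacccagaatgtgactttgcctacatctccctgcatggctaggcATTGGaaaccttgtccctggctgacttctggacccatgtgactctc
D130017N08Rik: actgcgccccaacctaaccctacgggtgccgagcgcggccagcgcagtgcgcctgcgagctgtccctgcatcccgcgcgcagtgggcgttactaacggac
3110009E18Rik, in the Dbi promoter: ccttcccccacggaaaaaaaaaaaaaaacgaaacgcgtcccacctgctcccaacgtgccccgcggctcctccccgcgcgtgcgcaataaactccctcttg
B230216N24Rik: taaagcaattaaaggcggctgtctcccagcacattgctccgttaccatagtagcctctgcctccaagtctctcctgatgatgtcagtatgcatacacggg
5330439B14Rik: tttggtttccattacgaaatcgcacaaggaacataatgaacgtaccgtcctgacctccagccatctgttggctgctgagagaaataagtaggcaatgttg
A830010M20Rik, in the Btbd8 promoter: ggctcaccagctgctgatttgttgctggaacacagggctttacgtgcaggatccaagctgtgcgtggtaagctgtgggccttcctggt

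The 4632428C04Rik site held a CCAAT letter match on the minus strand, and the other 5 held neither motif. In all, 68 Rik-assigned sites lay wholly inside a promoter window, 49 of them in the promoter of their own gene, out of 1227 such sites in the table. Letters of the Pax6 paired-domain core, TTCACGC and the looser TTNACGC (which includes every TTCACGC), were found on neither strand of the 68 sites. Over the 1227 sites they were found in 1.06% and 2.61%. The palindromic paired-type homeodomain dimer motif with a spacer of 3 bases was found in 0 of the 68 and in 0.163% of the 1227. GGGCGG, a GC box, was found in 14 of the 68 (20.6%) and 307 of the 1227, and CCAAT in 11 (16.2%) and 273 (22.2%). Over all 32851 promoter windows, which are longer than a site, the shares were 1.26% for TTCACGC, 3.36% for TTNACGC and 0.487% for the homeodomain dimer. The median GC content was 57% over the 68 sites and 59% over the 1227.

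By RefSeq biotype, 522 of the 690 genes were lncRNA genes, 155 were protein-coding and 11 were transcribed pseudogenes, while 2 were not in the gene table. Thus 1446 of the 1808 sites were given to lncRNA genes and 339 to coding genes. Of the 690 genes, 333 had 1 site, 224 had 2 or 3, and 133 had 4 or more. Sites given to Rik genes lay farther from a start than sites in general, with a median distance of 20.5 kb against 11.8 kb over all sites. Distal intergenic positions made up 44.9% of them (811 sites) against 28.9% of all sites. Promoters within 1 kb of a start made up 12.9% (233 sites) against 19.4%. This placement is not particular to Rik genes. Sites nearest predicted genes with a Gm symbol had a median distance of 25.3 kb, with 49.9% distal intergenic and 8.93% within 1 kb. Sites of lncRNA genes without a Rik symbol had a median distance of 22.8 kb.

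**Figure D1:**
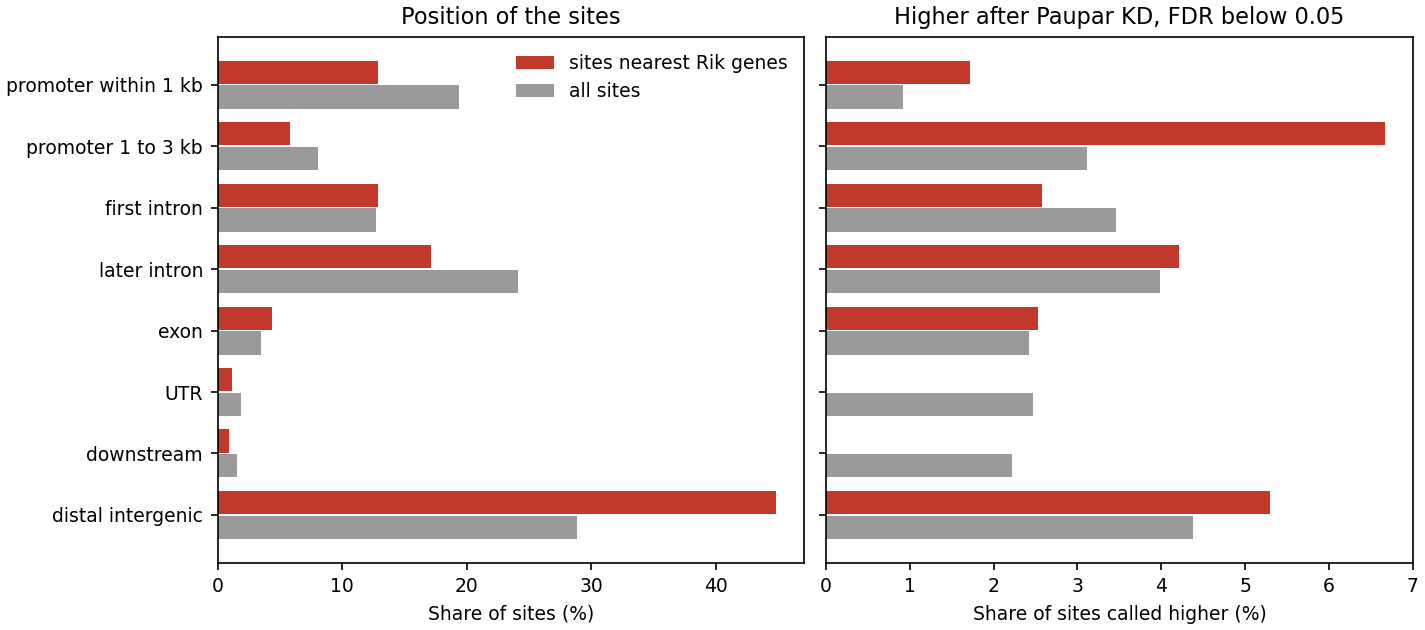
Left: the share of sites (%) in each annotation class, for sites nearest Rik genes (red) and all sites of the table (grey). Right: the share of each class (%) called higher after Paupar KD at FDR below 0.05. The red bar is longer than the grey one for distal intergenic sites (44.9% against 28.9%) and shorter for promoters within 1 kb (12.9% against 19.4%). None of the 21 UTR and 17 downstream Rik-assigned sites was called, beside 2.47% and 2.22% of all sites of these classes called higher. With so few sites, 0 calls show no difference between classes.

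Some of these sites lay inside named coding genes. The body of a protein-coding gene without a Rik symbol held 310 of the sites (17.1%), and at 466 sites such a gene body was closer than the annotated Rik start. Of 542 sites in introns, the authors' annotation placed 232 in introns of their own Rik gene, 225 in introns of another gene and 85 in a transcript without a gene ID. Of the 225, 195 lay inside the RefSeq body of that other gene. The 16 sites annotated to a Galnt2 transcript did not: all lay outside the RefSeq body of Galnt2. Of the 225, 12 were in introns of Nav2, a cytoskeletal protein of growing neurites. Counting sites of any annotation, 15 lay inside the Nav2 body. Agap1, which acts in endosomal traffic, and Asic2, an acid-sensing ion channel, held 10 of the 225 each (10 and 13 sites of any annotation). Irs2, the adaptor that carries insulin receptor signals, held 8, and Nkx2-2os, the antisense transcript beside the islet factor Nkx2-2, held 7.

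The Pax6 signal is the authors' mean concentration in each group, a normalised read count on a log2 scale, and the change is Paupar KD minus control KD. Over the Rik-assigned sites the authors' deposited table gave a median of 4.25 for control KD and 4.46 for Paupar KD. The median change was 0.03, with quartiles at -0.45 and 0.85, beside a median of -0.03 over all sites. The change was above 0 at 51.5% of the sites and below 0 at 47.9%. At a deposited false discovery rate (FDR) below 0.05, 75 of the 1808 sites were higher after Paupar KD (4.15%), beside 3.26% of all sites. At the same threshold 10 sites were lower (0.553%), beside 0.846% of all sites. With each class of all sites weighted to the make-up of the Rik-assigned sites, the background was 3.55% higher and 0.781% lower. Sites nearest predicted genes with a Gm symbol, which are likewise mostly lncRNA genes, were higher in 37 of 896 cases (4.13%) and lower in 9. These shares were not tested against each other, since the sites share their libraries.

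**Figure D2:**
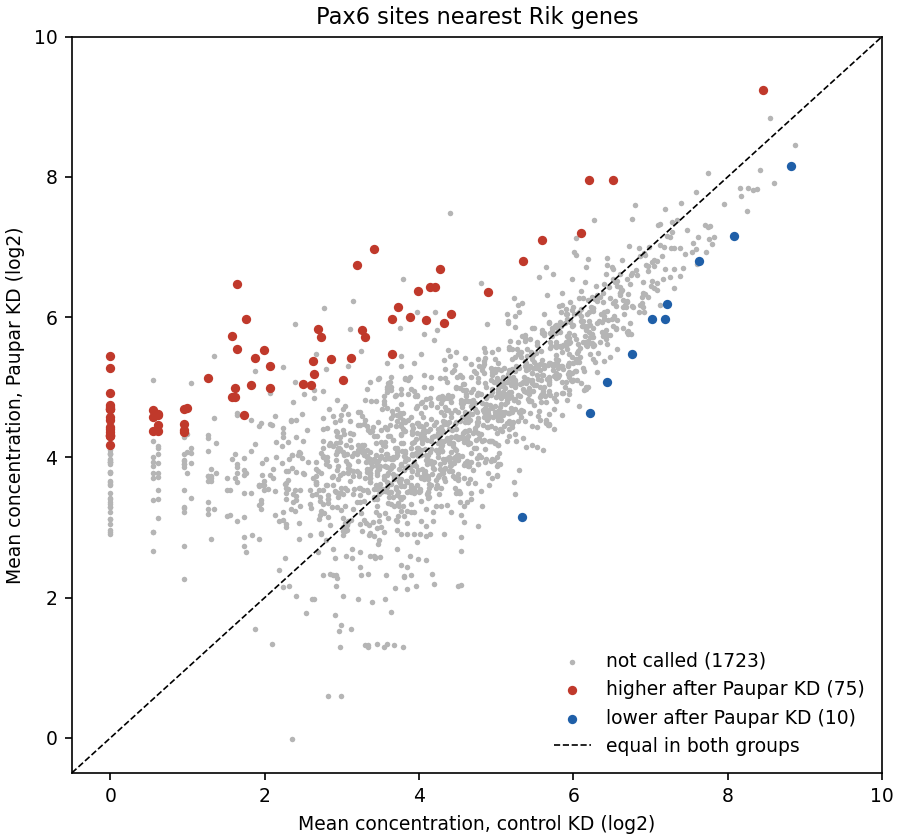
Each point is 1 of the 1808 sites nearest a Rik gene, at its mean concentration (log2) in control KD (x axis) and Paupar KD (y axis), as the authors deposited them; the dashed line marks equal values. The 75 higher sites (red) lie mostly at low control concentrations, with 18 at the floor on the left edge, while the 10 lower sites (blue) lie between 5.34 and 8.82 in control KD.

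Calls by gene type were read beside all sites of the same type. Of the sites of lncRNA Rik genes, 66 were higher (4.56%, beside 4.26% of the sites of all lncRNA genes) and 8 were lower (0.553%, beside 0.844%). The 2607 sites of all lncRNA genes include these 1446. Of the other 1161, 3.88% were higher and 1.21% lower. Of the sites of coding Rik genes, 7 were higher (2.06%, beside 3.14% of the sites of all coding genes) and 2 were lower (0.590%, beside 0.852%). The remaining higher sites were 1 given to 5033404E19Rik, a transcribed pseudogene, and 1 given to A830010M20Rik, for which the table used gave no biotype.

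By position, 64 of the 75 higher sites were outside promoters, taken as 3 kb around a start. Of all Rik-assigned sites, 12.9% lay within 1 kb of a start and 5.81% between 1 and 3 kb. Over the whole table, 47 of the 855 higher sites lay within 1 kb of a start and 66 between 1 and 3 kb. Of the 811 distal intergenic sites 43 were higher (5.30%), beside 4.38% of all distal sites, and 2 were lower, beside 0.673%. In introns after the first, 13 of 309 were higher (4.21%, beside 3.98%) and 2 were lower (beside 0.617%). In first introns 6 of 233 were higher (2.58%, beside 3.46%) and 3 were lower (beside 0.601%). Of 105 sites between 1 and 3 kb of a start, 7 were higher (6.67%, beside 3.11%) and 0 were lower (beside 0.518%). Within 1 kb of a start 4 of 233 were higher (1.72%, beside 0.923%) and 2 were lower (0.858%, beside 1.75%). In exons 2 of 79 were higher, beside 2.42%, and 1 was lower, beside 0.55%. The median change at promoters within 1 kb was -0.26, beside -0.30 over all such promoters, and 68.7% of the Rik-assigned promoter sites had a change below 0.

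The change went with the strength of the site. With all sites cut at the quartiles of mean concentration into 4 bins, the median change of the Rik-assigned sites was 0.83 in the weakest bin and 0.26 in the next, beside 0.72 and 0.20 over all sites of these bins. In the strongest bin it was -0.31, beside -0.36 over all sites of that bin. Of the 10 falls, 9 were in the strongest bin, whereas the rises were spread over the 4 bins with 15, 25, 19 and 16 sites from weakest to strongest. Over all sites, 188 of the 222 falls were in the strongest bin, and the rises numbered 110, 305, 244 and 196 in the same order. A weaker site rests on fewer reads, and the number of reads is unknown.

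Summits, the points of highest signal called separately in each library, gave a value per library. A summit within 250 bp of the middle of the site was listed at 926 Rik-assigned sites (51.2%) in control KD replicate 1 and at 676 (37.4%) in control KD replicate 2. It was listed at 1061 sites (58.7%) in Paupar KD replicate 1 and at 1133 (62.7%) in Paupar KD replicate 2. Both Paupar KD libraries thus had more, and the groups did not overlap. Over all 26244 sites the counts were 13112 and 9148 in control KD and 14270 and 16572 in Paupar KD. The groups did not overlap there either, so this separation is not particular to Rik-assigned sites. The mean was 801 ± 177 (SD, n = 2) Rik-assigned sites in control KD and 1097 ± 50.9 (SD, n = 2) in Paupar KD. The two-sided exact permutation test gave p = 0.33, the smallest value that 2 libraries against 2 allow. The whole lists differed in the same direction, with 14311 and 9983 summits for control KD and 15611 and 17942 for Paupar KD. With each list cut to the length of the shortest, the counts were 685, 676, 726 and 688 in the same order of libraries.

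**Figure D3:**
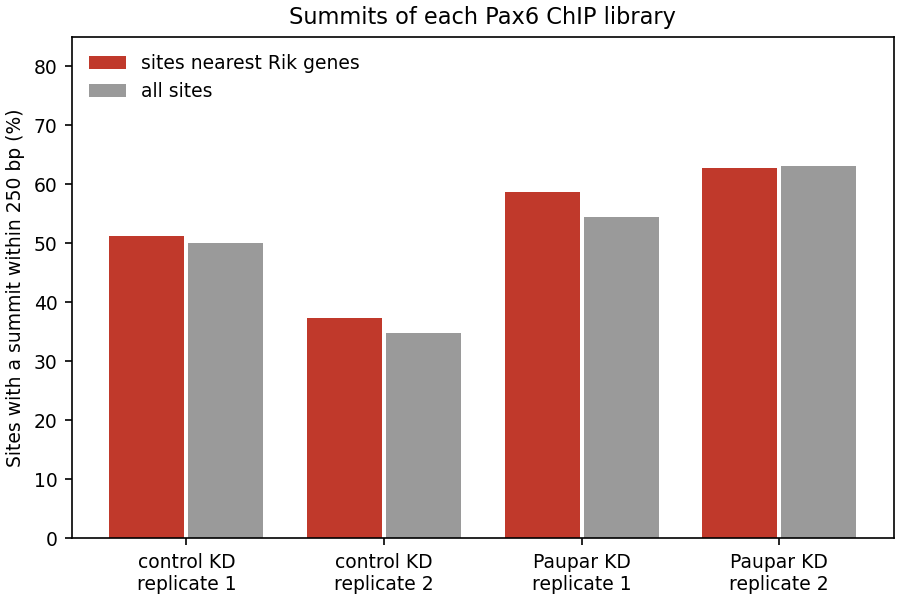
Share of sites (%) with a called summit within 250 bp in each of the 4 Pax6 ChIP libraries, for sites nearest Rik genes (red) and all sites (grey). The share at Rik-assigned sites was lowest in control KD replicate 2 (37.4%) and highest in Paupar KD replicate 2 (62.7%), and the grey bars have the same order.

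All 4 libraries had a summit at 383 of the 1808 sites (21.2%) and at 5250 of all 26244, and a single library had one at 732 (40.5%, beside 43.9%). At 156 sites both Paupar KD libraries and neither control KD library had a summit, and 38 of these were higher (8.63% of the Rik-assigned sites had this pattern, beside 8.26% of all sites). At 22 sites the reverse pattern held (1.22%, beside 1.47%), and 0 of these were called in the authors' deposited table. With lists of equal length the counts of these patterns were 90 and 58. They were 293 and 101 without control KD replicate 1, 196 and 189 without control KD replicate 2, 395 and 57 without Paupar KD replicate 1, and 403 and 80 without Paupar KD replicate 2. Summits and concentrations come from the same libraries, so neither supports the other. At 61 of the 75 higher sites neither control KD library had a summit. Counts of called sites by summit pattern, here and above, were not taken over all sites. They therefore show nothing particular to Rik-assigned sites. Paupar KD replicate 1 had a summit at 70 of them and was the single library with one at 18, whereas Paupar KD replicate 2 had a summit at 55 and was alone at 3. The part of Paupar KD replicate 1 in these calls was not tested, since the table gives no value per library. Leaving out sites with a summit in that library alone, a setting chosen after seeing the data, left 57 higher and 10 lower sites. All 10 lower sites had a summit in control KD replicate 2 and in Paupar KD replicate 2, and 9 had one in control KD replicate 1.

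The control signal differed widely between the rises, and 16 of the 75 were in the strongest of the 4 bins. At the 57 higher sites above the floor, the authors' deposited table gave a control KD median of 2.63 and a Paupar KD median of 5.48. The floor is the lowest concentration listed, -0.01, at which a group has no measurable signal. The authors list a change at such sites too, and it enters the medians, quartiles and shares above, but it is not quoted here. A change from a control value near the floor has an uncertain size.

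Among the 20 rises above the floor with the largest change, the control concentration was between 0.55 and 3.42 and the Paupar KD concentration between 4.38 and 6.97. The first was at 1110002J07Rik (chr10:66928387-66928486, 8.13 kb upstream of its start), listed at 1.64 in control KD and 6.48 in Paupar KD with FDR 0.0113. A site of C630028M04Rik (chr4:52152906-52153005, distal) was listed at 1.76 and 5.97 (FDR 2.68e-06). The site of 1700017G19Rik (chr3:40510832-40510931), 1.06 kb upstream of its start and 20.4 kb from Intu, a planar polarity gene, was listed at 1.58 and 5.73 (FDR 2.4e-05). At all of these a summit was called in each Paupar KD library and in none of the control KD libraries.

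The smallest FDR of any Rik-assigned site was 9.18e-09, at 2210408F21Rik (chr6:31299396-31299495, in an intron), which the authors' deposited table lists at 3.20 (control KD) and 6.75 (Paupar KD). A weaker site of the same gene (chr6:31301041-31301140) was listed at 0.95 and 4.39 (FDR 0.042), and its summit was from Paupar KD replicate 1. A distal site of 4930517M08Rik (chr17:4668646-4668745) was listed at 1.64 and 5.55 (FDR 0.000209), and one of 2310043L19Rik (chr1:177634335-177634434) at 3.42 and 6.97 (FDR 0.0307). Both had summits in the 2 Paupar KD libraries and in neither control KD library.

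Several of these rises were in introns of coding genes. The 4833415N18Rik site (chr16:11708884-11708983) lay in Snx29, a sorting nexin gene, and was listed at 0.55 and 4.67 (FDR 0.0118). The 1700028E10Rik site (chr5:151318522-151318621) lay in Stard13, which encodes a GTPase-activating protein, and was listed at 0.61 and 4.6 (FDR 0.02). The 9430078K24Rik site (chr12:79799557-79799656) lay in Rad51b, a DNA repair gene, and was listed at 1.87 and 5.42 (FDR 0.00214). The A830010M20Rik site at the Btbd8 start, printed above, was listed at 0.61 and 4.62 (FDR 0.016), and its summit was from Paupar KD replicate 1.

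The other sites among the 20 had no summit in a control KD library, and their values are also those of the authors' deposited table. C130060K24Rik, now named Qrfprl, was listed at 0.55 and 4.58 (FDR 0.0161) and had a summit in no library. A site of 4930563J15Rik was listed at 1.26 and 5.13 (FDR 0.00236), and one of 4930505K14Rik at 1.99 and 5.53 (FDR 0.0025). These 2 had summits in both Paupar KD libraries, as did the sites of 4930591A17Rik (0.95 and 4.69, FDR 0.0201) and 4930459C07Rik (0.99 and 4.70, FDR 0.0145). Those of C730036E19Rik (0.61 and 4.46, FDR 0.0485), 8430422H06Rik (0.61 and 4.38, FDR 0.0457) and 4933440J02Rik (0.95 and 4.47, FDR 0.0386) had theirs in Paupar KD replicate 1 alone. The 4930483O08Rik site (0.55 and 4.38, FDR 0.0297) had one in Paupar KD replicate 2 alone.

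At 18 further higher sites the control KD group was listed at the floor and the Paupar KD concentration was between 4.18 and 5.45, in the authors' deposited table. The highest was 4930556N09Rik (chr10:97159224-97159323, 123 kb from its start), listed at -0.01 and 5.45 (FDR 0.000713), its summit coming from Paupar KD replicate 1. Next came 5033404E19Rik (chr1:185596942-185597041), a transcribed pseudogene, at -0.01 and 5.27 (FDR 0.000999), with summits in both Paupar KD libraries. In introns of coding genes, 4930517E11Rik lay in Sema6d, an axon guidance gene (4.92 in Paupar KD), and 4833422C13Rik in Acot12, an acyl-CoA thioesterase gene (4.30). A site of A530006G24Rik (4.30 in Paupar KD) lay 195 kb from Foxa2, a forkhead factor of endoderm and islets. 4930444M15Rik was listed at 4.57 in Paupar KD at its promoter. The remaining sites at the floor were given to 2010109A12Rik, 4930448I06Rik, D830032E09Rik, 4930459C07Rik, 2810404M03Rik, C630028M04Rik, C230035I16Rik, 5430434I15Rik, 1700019C18Rik, E130114P18Rik, C330004P14Rik and 1700108F19Rik. Summits were called in Paupar KD replicate 1 alone at 10 of the 18, at 7 in both Paupar KD libraries and at 1 in Paupar KD replicate 2 alone.

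At 9 higher sites all 4 libraries had a summit; these were singled out after their values were seen. The strongest Rik-assigned site of all was among them, in a first intron at B230214G05Rik (chr15:88360841-88360940). It was listed at 8.46 in control KD and 9.24 in Paupar KD, a change of 0.78 with FDR 0.00371. The distal 4930432O09Rik site (chr10:121242688-121242787), 21.1 kb from Tbc1d30, was listed at 6.20 and 7.95, a change of 1.75 (FDR 6.64e-08). B930025P03Rik (chr8:10695335-10695434) was listed at 6.51 and 7.95 (change 1.43, FDR 1.74e-05), and 5830416I19Rik (chr5:64029835-64029934) at 4.27 and 6.69 (change 2.41, FDR 9.41e-06). 1700020N01Rik was listed at 5.59 and 7.10 (FDR 0.00171), and a second site of 4930459C07Rik at 3.65 and 5.48 (FDR 0.0345). The last 3 were given to coding genes and lay between 1 and 3 kb of a start. E330009J07Rik, now named Dennd11, was listed at 6.10 and 7.20 (FDR 0.0119), 3110082I17Rik at 5.35 and 6.80 (FDR 0.00359), and 1700010B08Rik at 4.32 and 5.91 (FDR 0.0493).

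Of the 10 falls, 8 were given to lncRNA genes and 2 to coding genes. They had medians of 7.11 (control KD) and 5.98 (Paupar KD) in the authors' deposited table. The fall with the smallest FDR, 0.00706, was given to E130114P18Rik (chr4:97618762-97618861) and lay in an intron of Nfia, a nuclear factor I transcription factor, at 8.08 and 7.16. Another site given to E130114P18Rik in Nfia (chr4:97787658-97787757) was among the rises at the floor, at -0.01 and 4.32 (FDR 0.0314). No other Rik gene had both a rise and a fall.

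The fall with the highest signal was at 5031425E22Rik (chr5:23418472-23418571, first intron), 14.5 kb from Kmt2e, a chromatin regulator of the MLL family, at 8.82 and 8.16 (FDR 0.0404). C030007H22Rik (chr1:89364640-89364739, first intron) was listed at 7.19 and 5.98 (FDR 0.00729), and 4930428O21Rik (chr5:107687912-107688011, exon) at 7.63 and 6.80 (FDR 0.0428). 2 of the falls were at promoters. The 4632428C04Rik promoter printed above, 56.8 kb from Hes1, a Notch target and repressor of endocrine differentiation, was listed at 7.02 and 5.97 (FDR 0.0314). 1110008L16Rik (chr12:55302743-55302842), now named Prorp, which encodes the nuclease of mitochondrial RNase P, was listed at 7.22 and 6.19 (FDR 0.0367), at a start that also lies inside Ppp2r3c.

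The other 4 falls were weaker in Paupar KD. 4933427D06Rik (chr6:89066727-89066826, first intron) was listed at 6.76 and 5.48 (FDR 0.0193), and 2810410L24Rik (chr11:120179607-120179706, distal) at 6.44 and 5.07 (FDR 0.02). C130050O18Rik, a coding gene (chr5:139409510-139409609, intron), was listed at 6.22 and 4.64 (FDR 0.0348). The change furthest below 0 among the falls was -2.18, at 1700012D14Rik (chr7:111260254-111260353), 138 kb upstream of its start, at 5.34 and 3.15 (FDR 0.0233). That gene had 11 sites. Another of them, at chr7:111206095-111206194, was listed at 6.01 and 6.93, which did not pass the threshold (FDR 0.0786).

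**Figure D4:**
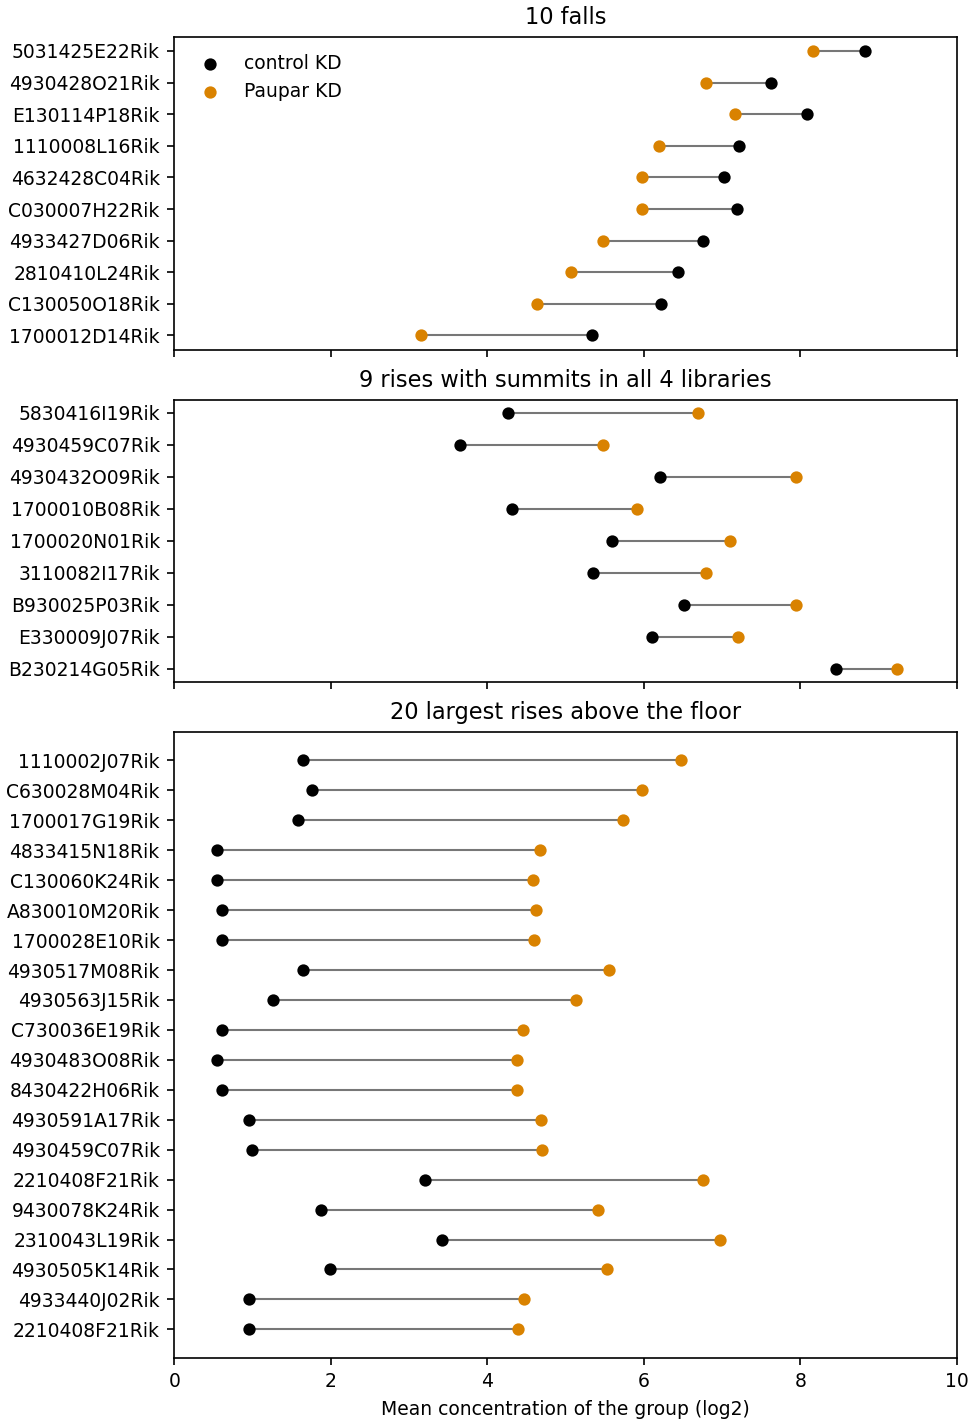
Mean concentration (log2) in control KD (black) and Paupar KD (orange) at the 10 falls, the 9 rises with summits in all 4 libraries and the 20 largest rises above the floor, each row 1 site named by its Rik gene, as the authors deposited the values. The falls start between 5.34 and 8.82 in control KD, whereas the 20 largest rises start between 0.55 and 3.42.

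Most of the strongest Rik-assigned sites were not called. Of the 10 with the highest mean concentration, B230214G05Rik was higher and 5031425E22Rik lower, and 8 did not pass the threshold in the authors' deposited table. 1700012C14Rik was listed at 8.55 and 8.84 (FDR 0.466), and 1700025C18Rik, 4.79 kb from the cadherin gene Cdh22, at 8.88 and 8.45 (FDR 0.315). 6430571L13Rik, a site in an untranslated region, was nearest to the threshold at 8.60 and 7.91 (FDR 0.0555). 1700092K14Rik was listed at 8.42 and 8.10 (FDR 0.462), E330017L17Rik at 8.38 and 7.83 (FDR 0.247), and 2610035D17Rik at 8.33 and 7.82 (FDR 0.223). 1700007F19Rik was listed at 8.27 and 7.84 (FDR 0.365), and a site of 4933427D06Rik at 8.16 and 7.84 (FDR 0.483). All 10 had summits in every library.

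Of the 10 strongest promoter sites within 1 kb of a start, 0 were called, and all 10 had a change below 0. Over all promoter sites within 1 kb, 0.923% were higher, 1.75% were lower and 70.6% had a change below 0. In the strongest bin of all sites, 77.1% had a change below 0. The authors' deposited table puts 9430038I01Rik first, at 7.75 (control KD) and 7.29 (Paupar KD), with FDR 0.39. A630001O12Rik was listed at 7.71 and 7.31 (FDR 0.425), E330009J07Rik (Dennd11) at 7.76 and 7.12 (FDR 0.151), and 5830416I19Rik at 7.38 and 6.99 (FDR 0.584). B230319C09Rik, inside Tet3, which oxidises 5-methylcytosine, was listed at 7.21 and 7.16 (FDR 0.957). The D130017N08Rik site printed above had the smallest FDR of the 10, with 7.31 and 6.42 (FDR 0.0842), and the 3110009E18Rik site at Dbi was listed at 7.19 and 6.69 (FDR 0.358). 2010109A12Rik was listed at 7.42 and 6.70 (FDR 0.148), 0610009E02Rik at 7.38 and 6.59 (FDR 0.135), and 4833417C18Rik at 7.04 and 6.81 (FDR 0.754). Of the rises at promoters, B230216N24Rik was listed at 3.65 and 5.98 (FDR 0.00193) and 5330439B14Rik at 1.61 and 4.99 (FDR 0.00607). These starts lie inside Pam, which amidates peptide hormones, and Abcc9, a regulatory subunit of ATP-sensitive potassium channels.

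Sites were gathered at some genes. Of the 1808, 957 were given to the 133 genes with 4 or more sites, and 28 genes had 10 or more. The genes with at least 15 sites are named here, a limit chosen after the counts were seen. Their calls stand beside 3.26% higher and 0.846% lower over all sites, and no gene was tested. A630001O12Rik had 27 sites near Tomm20 and Irf2bp2, of which 1 was higher, 13 had a change above 0 and the median change was -0.02. B930025P03Rik had 23, of which 2 were higher, with a median change of 0.16. 2210408F21Rik, near Mkln1, had 20, of which 2 were higher and 16 had a change above 0, with a median change of 0.85. The median concentration of these 20 was 4.08, in the second-weakest bin, where 59.2% of all sites had a change above 0.

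C530044C16Rik, a lncRNA gene in the region of Npvf, had 19 sites, of which 3 were higher. In the authors' deposited table these 3 were listed at 1.58 and 4.86 (FDR 0.0143), 0.95 and 4.36 (FDR 0.045) and 2.07 and 4.99 (FDR 0.017). The first had summits in both Paupar KD libraries, the second in Paupar KD replicate 1 alone and the third in no library. 2610035D17Rik, a lncRNA gene whose sites lie in the region of Slc39a11 and Sox9, had 18 sites, none of them called, with a median change of -0.18. A930031H19Rik (18 sites, median -0.12), 2610028E06Rik (16 sites, 12 of them nearest the glutamate receptor gene Grik3 and 4 nearest Csf3r, median 0.04) and 9130015G15Rik (15 sites, all inside Nav2, median 0.13) had 0 calls. At 4933427D06Rik (15 sites, median -0.48) 1 site was lower and 3 of 15 had a change above 0. The median concentration of these 15 was 4.54, in the second-strongest bin, where 42.3% of all sites had a change above 0. 2210417A02Rik, which has fewer than 15 sites and is given because earlier results of these data named it, had 14 sites with 0 calls. For its promoter the authors' deposited table lists 6.86 (control KD) and 6.87 (Paupar KD), with FDR 0.986.

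**Figure D5:**
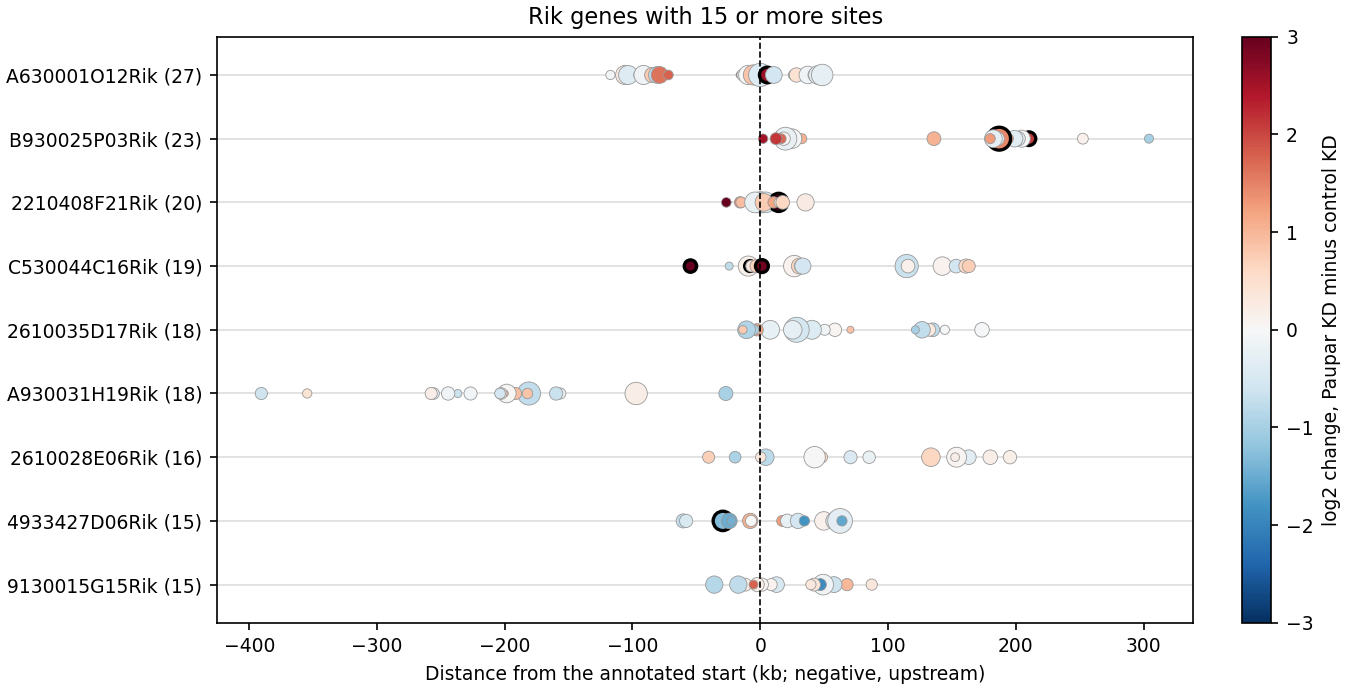
Each circle is 1 Pax6 site of a Rik gene with 15 or more sites (number in parentheses), at its distance from the annotated start in kb, negative upstream; the colour is the log2 change, a larger circle is a site of higher mean concentration, and a black ring marks a called site. Sites of 2210408F21Rik are mostly red (16 of 20 above 0) and those of 4933427D06Rik mostly blue (3 of 15 above 0), and few circles have a ring.

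Around Irs2, 40 sites were given to 4 Rik genes; they were gathered after the neighbours were seen. 3930402G23Rik had 13 of them, 9530052E02Rik 11 (8 inside Irs2), B930025P03Rik 10 and 4833411C07Rik 6. Of the 40, 27 had a change above 0, 1 was higher and 0 were lower, beside 3.26% higher and 0.846% lower over all sites. Their median concentration was 3.785, in the second-weakest bin, where 59.2% of all sites had a change above 0. Nothing particular to Irs2 can be read from these counts. The higher site was at 3930402G23Rik (chr8:10930979-10931078), 2.28 kb upstream of its start and 53.7 kb from Irs2, at 3.73 and 6.14, in the authors' deposited table (FDR 0.00066). Of the 40, the strongest, given to B930025P03Rik, was listed at 7.47 and 7.25 (FDR 0.728).

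Of the 690 genes, 22 now carry another name in RefSeq, with 47 sites. The lncRNAs named here were picked from them because their names are in use, after their values were seen. Chaserr, the transcript beside Chd2 that holds down its expression, had 5 sites with changes between -0.61 and 1.47. Norad, a lncRNA that binds Pumilio proteins, had 3 sites, with 3.28 and 4.04 (FDR 0.699) at its promoter in the authors' deposited table. The promoter of Snhg16, a small nucleolar RNA host gene, was listed at 6.25 and 6.09 (FDR 0.874). Oip5os1, also known as Cyrano, had 2 sites, listed at 2.83 and 3.88 (FDR 0.669) and at 3.33 and 4.11 (FDR 0.667). None of these sites passed the threshold; of the 22 renamed genes, Dennd11 and Qrfprl had a higher site and Prorp a lower one.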

How the data were processed

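Pax6 ChIP-seq was analysed in 2 control KD and 2 Paupar KD libraries of alphaTC1 cells; inputs were not used here. The submitters' processing notes name mm10 and, with no versions, ChIPseeker, DiffBind, MACS2 and Bowtie2. Which test DiffBind ran, how libraries were normalized and how inputs entered is not stated in the sources used here. Read depth is unknown, so signals carry no counting interval.

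The table of 26244 sites of 100 bp held the authors' own comparison, with group means and no value per library. Fold and concentrations were taken to be log2, although the deposited column names state no scale; the deposited fold is control KD minus Paupar KD, and its sign was turned. Fold and subtracted concentrations disagreed by more than 0.01 at 0 sites. The p-value and the FDR are as the authors deposited them, and calls use FDR below 0.05. No test of sites was refitted, so calls could not be recomputed without a library. At 60 of the 1808 sites the deposited FDR lay outside the authors' adjustment, and these could not be called.

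Each library's summits were deposited with a score, read as the authors' −log10 of a q-value, and used to filter and rank within a list. For control KD replicate 2 the number inside the list is not that of the title; the list was assigned by its GEO sample. Summits within 250 bp of the middle of a site were matched to it. Same-numbered libraries did not deviate together (correlation of deviations -0.0055), so replicate numbers were not treated as pairs.

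Gene names, biotypes and neighbours came from a RefSeq gene table of the same build (688 of 690 genes matched), and promoter windows from RefSeq (560 of 690 genes). Named sites were all falls, the 20 largest rises above the floor, rises at the floor, the 10 strongest sites, the 10 strongest promoter sites and genes with many sites. Members, lists and motifs were chosen with earlier results of these data known. Python 3.11.15, pandas 2.3.3, numpy 2.4.6, scipy 1.17.1 and matplotlib 3.10.9 were used, and the matching was checked on simulated data. Some marker genes are not reported here.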

Additional observations from a re-analysis of the deposited data

How the results depend on the processing

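At FDR below 0.01 there were 30 higher and 2 lower Rik-assigned sites of the 1808, and at FDR below 0.1 there were 120 and 28. Shares over all sites were not taken at these thresholds. Among sites above the median concentration of all sites, 35 were higher and the median change was -0.22. With 1 site per gene, the strongest, 32 of 690 were higher and the median was -0.175. The share over all sites was not taken at that setting. Within 50 kb of a start 43 of 1284 were higher and the median was -0.025. Over all sites, 0.923% were higher within 1 kb, 2.95% at 1 to 10 kb and 3.56% at 10 to 50 kb. The sign of the median change thus depends on which sites are counted. Its 95% order-statistic interval over sites was -0.01 to 0.09. The sites share 4 libraries and are not replicates, so that interval does not cover the spread between libraries. Without sites whose single summit was in Paupar KD replicate 1, the median was -0.08; this setting and the restriction to lncRNA genes (66 higher, 8 lower) were chosen after seeing the data. The cause of these shifts was not tested. An own Benjamini-Hochberg adjustment (70 higher, 10 lower), leaving out sites at the floor (57 and 10), requiring a summit (73 and 10) or a current Rik symbol (72 and 9) kept both counts within 1.5 times. Among these settings, a share over all sites was taken for the floor alone. Higher sites above the floor made up 3.15% of the Rik-assigned sites, beside 2.80% of all sites. With lists of equal length, 90 sites had summits in both Paupar KD libraries and neither control KD library, and 58 had the reverse, in place of 156 and 22. Leaving out each library in turn gave 196 to 403 and 57 to 189 such sites, and a difference in sites with a summit of 171 to 421. Under a replicate block the difference was 296 sites per library, with p = 0.5 in an exact permutation test, the smallest it allows. Depth is unknown, so how weakly bound a site could be and still be called cannot be given.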
